A study of Mus musculus with 8 samples.

Results

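The levels of 10 genes of distal mouse chromosome 4 were followed through 8 cultures of peritoneal mast cells (PMCs). They are the zinc finger genes Zfp990, Zfp268, Zfp933 and Zfp534, the pseudogenes Gm13238, Gm13136 and Znf41-ps, the long noncoding RNA Gm20707, and the genes Pramel12 and Dhrs3, which lie on the same stretch and code for no zinc finger. These 10 of the 55359 genes in the count table were chosen from the measured values, because both PMC lines had the lowest window of chromosome 4 here. The difference between the lines and the primary cultures is therefore given below as a description of these genes, without a test. All 10 were found in the table under their symbols.

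The libraries came from 1 culture each of PMC-303 and PMC-306 and from 6 primary WT PMC cultures, 3 from female and 3 from male mice. All cells were untreated and derived from wild-type PMCs of the mixed strain C57BL/6x129/Sv. The paper reports a heterozygous interstitial deletion on the chromosome followed here in all analysed PMC-306 cells, and no such deletion in PMC-303. The paper places this deletion in the bands that hold the tumour suppressor gene Arf. Its text names none of the genes followed here, which lie on the distal part of the chromosome, as genes of those bands. The paper also reports a translocation of the Y chromosome in part of the PMC-306 cells and a trisomy of another chromosome in most PMC-303 spreads. The part of these changes in the levels given below was not tested. Both lines arose spontaneously from long-kept PMC cultures, and each is represented by a single library, so that a value of a line has no replicate check. The lines were grown with less FCS and less SCF than the primary cultures and with the same amount of IL-3, so that medium and transformation cannot be told apart.

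KRAB zinc finger proteins bind DNA through arrays of C2H2 fingers and bring the corepressor TRIM28 to their targets, many of which are retroviral and other transposable elements. TRIM28 in turn recruits SETDB1, HP1 proteins and histone deacetylases, which keep the bound DNA silent. Distal mouse chromosome 4 carries many such genes and pseudogenes in near-identical copies, beside the PRAME-like genes and the retrovirus restriction gene Fv1.

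The members span 4.79 Mb. In GENCODE M39 on GRCm39, Pramel12 lies at chr4:143138996-143148041 and Dhrs3 at chr4:144619245-144654779, followed by Zfp990 at chr4:145237287-145269397, Zfp268 at chr4:145311711-145351915, Znf41-ps at chr4:145551807-145556512 and Gm13238 at chr4:145563789-145564568, all on the plus strand. On the minus strand follow Zfp534 at chr4:147757959-147787010, Gm13136 at chr4:147819934-147822883, Gm20707 at chr4:147866776-147894297 and Zfp933 at chr4:147907443-147932882. The 4 coding zinc finger genes differ in the number of C2H2 fingers found in their reading frames. Zfp268 encodes 20 fingers in 799 residues, Zfp534 15 in 661, Zfp990 13 in 605 and Zfp933 12 in 468. The proteins of Zfp990, Zfp268 and Zfp534 were 84.2% to 85.3% identical to each other, whereas that of Zfp933 shared 46.4% to 50% of its residues with them.

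The starts of 4 of the members, Zfp990, Zfp534, Zfp268 and Gm20707, are shown because they form 2 pairs that share a near-identical stretch. Each sequence runs from 250 bases before to 50 bases after the annotated start in GRCm39. In the first pair, Zfp990 (chr4:145237037-145237336, plus strand) and Zfp534 (chr4:147786961-147787260, minus strand), capitals mark the bases that both share in an alignment of 193 bases, of which 191 were identical.
Zfp990: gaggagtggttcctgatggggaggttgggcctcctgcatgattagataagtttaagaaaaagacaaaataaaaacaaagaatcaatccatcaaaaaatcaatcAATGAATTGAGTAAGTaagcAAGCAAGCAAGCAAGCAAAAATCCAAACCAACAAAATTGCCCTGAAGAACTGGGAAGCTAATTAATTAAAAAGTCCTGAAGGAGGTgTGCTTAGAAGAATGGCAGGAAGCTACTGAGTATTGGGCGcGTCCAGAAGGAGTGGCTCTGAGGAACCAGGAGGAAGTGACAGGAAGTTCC
Zfp534: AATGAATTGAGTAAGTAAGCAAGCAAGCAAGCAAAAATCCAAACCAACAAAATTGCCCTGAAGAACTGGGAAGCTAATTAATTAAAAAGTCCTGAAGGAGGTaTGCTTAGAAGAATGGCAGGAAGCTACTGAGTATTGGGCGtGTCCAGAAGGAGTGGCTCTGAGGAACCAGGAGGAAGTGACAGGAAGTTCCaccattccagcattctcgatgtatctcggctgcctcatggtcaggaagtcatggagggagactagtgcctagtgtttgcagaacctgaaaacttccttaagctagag

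In the second pair, Zfp268 (chr4:145311461-145311760, plus strand) and Gm20707 (chr4:147894248-147894547, minus strand), capitals mark the bases shared in an alignment of 278 bases, of which 270 were identical.
Zfp268: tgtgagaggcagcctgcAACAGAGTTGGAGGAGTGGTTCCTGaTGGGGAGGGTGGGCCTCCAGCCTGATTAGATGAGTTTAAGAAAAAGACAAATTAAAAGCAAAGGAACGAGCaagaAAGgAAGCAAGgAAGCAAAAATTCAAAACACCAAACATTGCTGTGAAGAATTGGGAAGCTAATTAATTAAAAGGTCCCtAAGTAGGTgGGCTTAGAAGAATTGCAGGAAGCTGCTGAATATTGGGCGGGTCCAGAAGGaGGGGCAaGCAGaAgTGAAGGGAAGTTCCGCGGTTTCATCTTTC
Gm20707: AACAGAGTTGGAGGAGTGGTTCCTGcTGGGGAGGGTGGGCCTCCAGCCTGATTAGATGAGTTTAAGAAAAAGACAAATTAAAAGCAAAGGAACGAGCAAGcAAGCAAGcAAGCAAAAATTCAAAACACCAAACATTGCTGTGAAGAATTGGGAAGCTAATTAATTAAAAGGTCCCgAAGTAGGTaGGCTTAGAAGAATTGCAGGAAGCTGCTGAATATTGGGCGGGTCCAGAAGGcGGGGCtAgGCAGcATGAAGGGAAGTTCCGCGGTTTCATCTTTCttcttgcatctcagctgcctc

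Thus the windows of Zfp990 and Zfp534 were 99% identical over the 193 aligned bases, although the genes start 2.55 Mb apart. Those of Zfp268 and Gm20707 were 97.1% identical over 278 bases. In the first pair, bases 104 to 300 of the Zfp990 window matched bases 1 to 193 of the Zfp534 window. The annotated start of Zfp534 thus lies outside the shared stretch. Across the pairs the identity was lower, at 87.6% over 234 aligned bases for Zfp990 and Zfp268. Gm20707 starts 30 bases from Zfp984 on the same strand, so that both read from nearly the same start. The windows of Zfp990 and Zfp534 hold 2 and 3 CpG dinucleotides and those of Zfp268 and Gm20707 hold 4 and 6, against a median of 11 over 21614 promoters of coding genes. The GATA motif AGATAA (either strand) is found in the window of Zfp990 and in none of the other 9, and in 10.6% of all promoters. In Zfp534 the same letters lie further upstream than this window.

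The libraries held between 15918757 and 24180226 estimated counts. Levels are given as CPM, the counts in each 1e6 counts of a library after scaling with TMM factors, which balance libraries of different composition. Where a gene had 0 counts, as many as 3 counts are still compatible with counting error alone, which corresponds to 0.123 to 0.187 CPM. All 11 mast cell markers were detected at 1 CPM or more in every primary culture, with summed levels of 53275 to 83305 CPM there. The sums in PMC-303 and PMC-306 were 43698 and 40328 CPM. B cell, T cell, fibroblast and granulocyte markers summed to at most 0.344 CPM in any library. The 6 macrophage markers summed to 5.53 to 64.5 CPM in the primary cultures, 2.43 CPM (PMC-303) and 427 CPM (PMC-306), of which Adgre1 gave 426 CPM, while C1qa, C1qb, Cd14 and Csf1r stayed at or below 0.230 CPM everywhere. In bulk RNA, fewer cells that express a gene and less RNA per cell cannot be told apart.

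Zfp990 was either abundant or nearly absent in the primary cultures. Its level was 70.9 CPM in female culture 2, 46.3 CPM in female culture 3 and 38.1 CPM in male culture 3. It was 0.0459 CPM in female culture 1, 0.359 CPM in male culture 1 and 0.480 CPM in male culture 2, from 1 to 7.72 counts each. The lowest of the 3 high cultures and the highest of the 3 low ones stood 66.0-fold apart. PMC-303 gave 2 counts (0.0823 CPM) and PMC-306 gave 0. Both lines thus lay near the 3 low cultures, and at this depth the 0 of PMC-306 could not be told from the single count of female culture 1. Against the primary mean of 26 ± 30.2 CPM (SD, n = 6), PMC-303 was 316-fold lower, with a 95% counting interval of 87.6 to 2612, and PMC-306 at least 106-fold lower. These folds refer to a mean at which no primary culture was found.

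Zfp534 was detected at 1 CPM or more in the same 3 primary cultures. It was 3.21 CPM in female culture 2, 2.24 CPM in female culture 3 and 1.68 CPM in male culture 3. Female culture 1 had 0.217 CPM and male cultures 1 and 2 had 0. The lines had 0.0423 CPM (PMC-303) and 0.0623 CPM (PMC-306), both inside the primary range, between male cultures 1 and 2 at 0 and female culture 1. The 3 high cultures were the same for both genes and came from both sexes. Their transcripts are close to those of other genes of the cluster, 94% identical to Zfp988 over 3029 bases for Zfp990 and 93.8% to Zfp987 over 2245 bases for Zfp534, and 7 other genes share at least 150 bases with Zfp534 at 95% identity or more, so that the assignment of reads to Zfp534 is uncertain. Of the counts of Zfp990, 99.0% were assigned to a single transcript of 4.

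**Figure D1:**
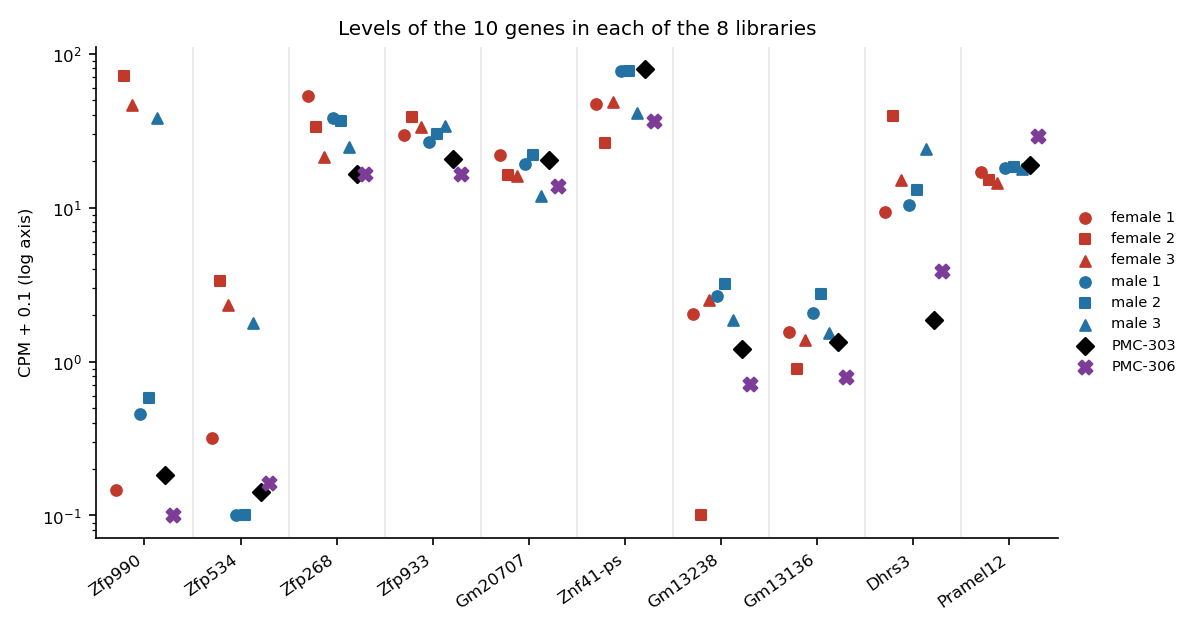
Each point is the CPM + 0.1 (log axis) of 1 of the 10 genes in 1 library, with 3 female cultures in red, 3 male cultures in blue (circles, squares and triangles for cultures 1, 2 and 3) and the lines as black diamonds (PMC-303) and purple crosses (PMC-306). Zfp990 and Zfp534 are high in female cultures 2 and 3 and male culture 3 and low in the other libraries, and Gm13238 is at 0 in female culture 2 alone, while Dhrs3, Zfp268 and Zfp933 lie lower in both lines than in every primary culture.

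Gm13238, a processed pseudogene, showed the reverse in a single culture. Gm13238 was at 0 in female culture 2 and between 1.75 and 3.07 CPM in the other 5 primary cultures. The lines had 1.11 CPM (PMC-303) and 0.611 CPM (PMC-306). Its 780 bases are 98.8% identical to Gm13146, so that its reads are also uncertain. A gap of 4-fold or more between neighbouring primary cultures was thus found in 3 of the 10 genes, in 2 with TPM and in 1 when 1 CPM in place of 0.1 CPM was added before the ratio. Of the 13376 genes that reached 1 CPM in a primary culture, 2.26% had such a gap. This count was made after the values of Zfp990 had been seen.

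Other genes of the region, which holds 166 annotated genes from Pdpn to Plod1, were examined in the same way. Of the 40 genes there that reached 1 CPM in a primary culture, 9 had a gap of 4-fold or more, and in 4 of these, Gm13230, Zfp990, Gm13233 and Zfp534, the high cultures were the same. Gm13230, a transcribed pseudogene just before Zfp990, had 4.21, 2.09 and 3.05 CPM in female cultures 2 and 3 and male culture 3. The remaining primary cultures did not exceed 0.204 CPM, and both lines had 0. Zfp985 reached 5.29 CPM in female culture 2 and 4.40 CPM in male culture 3, but 0.528 CPM in female culture 3, and was at 0 in the other 5 libraries. Zfp979 went the other way, with 16.8 CPM in female culture 1, 0.220 CPM in female culture 2 and 0.922 to 3.11 CPM in the remaining primary cultures. It was at 0 in PMC-303 and at 0.0491 CPM in PMC-306. Gm13244 was, like Gm13238, at 0 in female culture 2, and it was also at 0 in both lines, whereas male cultures 1 and 2 had 2.56 and 2.54 CPM.

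Over the whole genome, female cultures 2 and 3 and male culture 3 were set off as the high ones by a gap of 4-fold or more in 49 genes, 4 of them in the region and 1 elsewhere on chromosome 4. In 31 genes the other 3 primary cultures were the high ones, and 0 of these lay in the region. The largest such gap was that of BC018473, a long noncoding RNA gene of chromosome 11 named after its values were seen, which had 867, 801 and 892 CPM in female cultures 2 and 3 and male culture 3 and 0 to 0.0622 CPM in the other primary cultures. Both lines stood on its high side, with 1105 CPM (PMC-303) and 327 CPM (PMC-306), whereas for Zfp990 both stood on the low side. Of the 11 mast cell markers, only the tryptase gene Tpsb2 was also highest in female cultures 2 and 3 and male culture 3. It had 9896, 6451 and 10441 CPM there, against 2857 to 4801 CPM in the other primary cultures. The remaining mast cell markers did not split in this way. The macrophage genes Lyz2 and Adgre1 were highest in female culture 2 (18.0 and 46.4 CPM) and male culture 3 (5.72 and 25.3 CPM), and did not exceed 2.35 and 4.35 CPM in the other 4. The part of these differences between cultures in the levels of Zfp990 and its neighbours was not tested. The labels give the same mixed strain for all 8 cultures, and whether the DNA of the region differs between them was not tested.

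**Figure D2:**
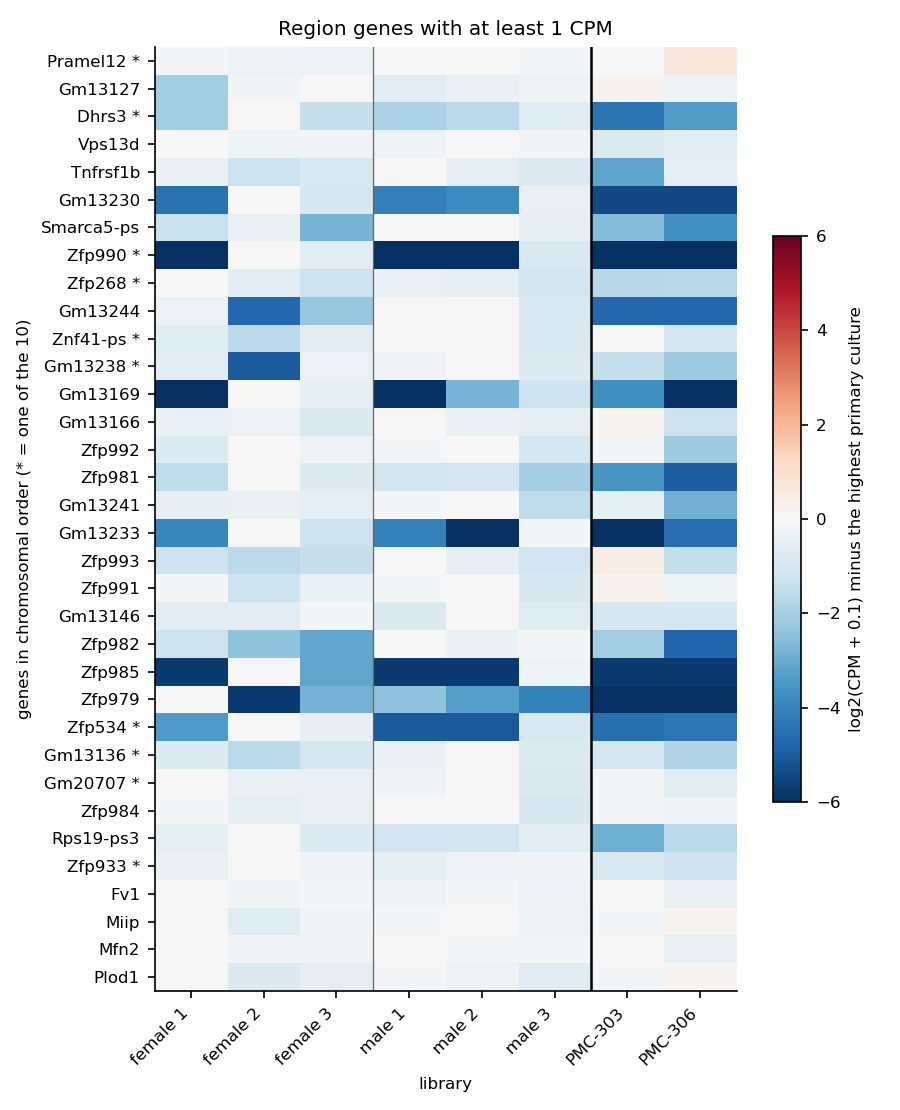
Rows are the 34 genes of the region whose level was 1 CPM or more in a line or in the primary mean, in chromosomal order, with the 10 genes starred, and columns are the 6 primary cultures and the 2 lines. Color gives log2(CPM + 0.1) minus that of the highest primary culture, with values below -6 drawn as -6, and blue cells, which stand for low values, recur in female culture 1, male cultures 1 and 2 and both lines for Gm13230, Zfp990, Gm13233, Zfp985 and Zfp534.

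In the region 15 genes have, at or near their annotated start, a stretch that resembles the window of Zfp990 or Zfp268 over at least 150 bases. They were sorted by which of these windows it resembles more. Closest to Zfp268 were 4 starts, those of Zfp268, Zfp991, Zfp984 and Gm20707. These 4 genes were detected in all 8 libraries, with 13.7 CPM or more in the lines and 11.8 to 126 CPM in the primary cultures. The other 11 starts, of Zfp990, Zfp534, Zfp979, Zfp985, Zfp987, Zfp988, Zfp989, Zfp600, Zfp978, Gm21411 and Rex2, were closest to Zfp990. None of these 11 genes reached 1 CPM in either line, where the highest was Zfp989 with 0.535 CPM in PMC-303. In the primary cultures 7 of them reached 1 CPM in at least 1 culture, and none did so in all 6. The kinds overlapped in level there, since Zfp990 had 38.1 to 70.9 CPM in 3 primary cultures and Zfp979 had 16.8 CPM in female culture 1. They did not overlap in the lines, whose values were used to choose the region. This comparison of starts was made after the levels were known and describes 15 related genes, of which Gm20707 and Zfp984 start within 30 bases of each other.

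The aligned stretches of these starts differed in CpG content. The 4 stretches of the Zfp268 kind, of 296 to 308 bases, held 4 to 7 CpG dinucleotides, and the 11 of the Zfp990 kind, of 248 to 312 bases, held 1 to 3. The positions compared were not alike. All 4 stretches of the Zfp268 kind covered the annotated start. Those of Zfp534, Zfp978, Zfp988, Zfp989, Gm21411 and Rex2 ended before it. The motif AGATAA was found in 0 of the 4 and in 7 of the 11 stretches. The GC box GGGCGG was found in all 4 and in 8 of the 11, but not in those of Zfp990, Zfp534 and Zfp987, and 42.6% of all promoters, in windows like those printed above, hold it on either strand. The CCAAT box was found in 3 of the 4 and in all 11, and in 39.9% of all promoters. A match says only that these letters occur in the stretch.

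**Figure D3:**
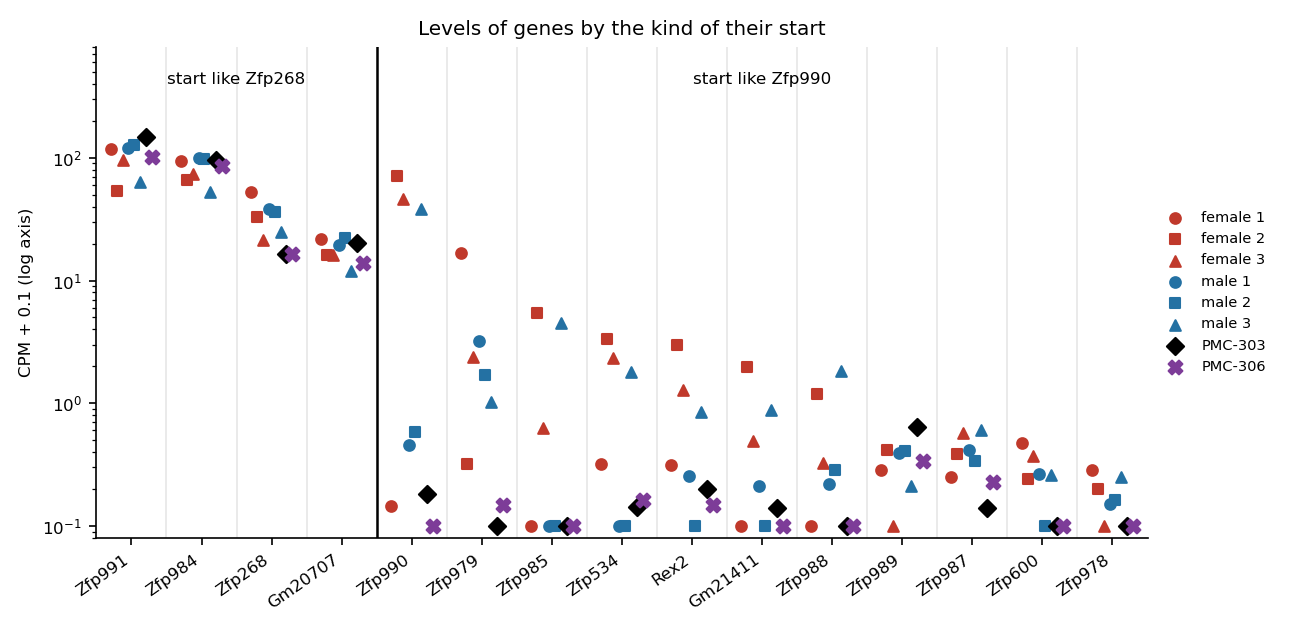
Each point is the CPM + 0.1 (log axis) of 1 gene in 1 library, with genes sorted by the kind of their start and colors and symbols as in the plot of the 10 genes. All points of the 4 genes with a start like Zfp268 lie at 11.8 CPM or more, and in the 11 genes with a start like Zfp990 the line symbols lie at 0.535 CPM or less.

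The remaining zinc finger members were expressed in every library. Zfp268 had 52.8, 33.0 and 21.3 CPM in female cultures 1 to 3 and 38.3, 36.1 and 24.7 CPM in male cultures 1 to 3. It had 16.3 CPM (PMC-303) and 16.5 CPM (PMC-306), both below every primary culture. The primary mean of 34.4 ± 11.2 CPM (SD, n = 6) was 2.11-fold and 2.08-fold higher than PMC-303 and PMC-306. In the primary cultures Zfp268 was highest in female culture 1, in which Zfp990 was lowest, and lowest in female culture 3. The 3 cultures high in Zfp990 had 21.3 to 33.0 CPM of Zfp268, and the other 3 had 36.1 to 52.8 CPM. Gm20707 and Gm13136 were also lower in those 3 cultures, Gm13136 only barely (at most 1.44 against at least 1.45 CPM). Zfp933 and Dhrs3 were higher there, while Znf41-ps, Gm13238 and Pramel12 overlapped. This split was examined after the values of Zfp990 were seen. Zfp268 and Zfp984 are 94.6% identical over 2023 bases, and its counts are not whole numbers, as is usual where reads were divided between genes or transcripts.

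Zfp933 varied least among the coding zinc finger members. It had 29.7, 38.6 and 33.1 CPM in female cultures 1 to 3 and 26.4, 30.0 and 33.9 CPM in male cultures 1 to 3, a mean of 31.9 ± 4.22 CPM (SD, n = 6). Its highest levels, 33.1 to 38.6 CPM, were in female cultures 2 and 3 and male culture 3. The lines had 20.7 CPM (PMC-303) and 16.5 CPM (PMC-306), again below all primary cultures, which is 1.54-fold and 1.94-fold below the mean. Its nearest other transcript, AW146154 on chromosome 7, was 77.1% identical over 1808 bases, and its counts were whole numbers in all 8 libraries.

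Of the noncoding members, Gm20707 had 20.2 CPM (PMC-303) and 13.7 CPM (PMC-306), both inside the primary range of 11.8 to 21.9 CPM. It overlaps Zfp984 on the same strand, so that the division of reads between them is uncertain. Gm13136, a processed pseudogene that is 98.7% identical to Gm13135 over 2945 bases, had 1.24 CPM in PMC-303, 0.697 CPM in PMC-306 and 0.793 to 2.64 CPM in the primary cultures. Znf41-ps had 47.0, 26.3 and 48.5 CPM in female cultures 1 to 3 and 77.1, 77.1 and 41.3 CPM in male cultures 1 to 3. The lines differed, with 78.9 CPM in PMC-303, above every primary culture, and 36.5 CPM in PMC-306, inside their range. Over 2413 bases Znf41-ps was 100% identical to Gm13236, so that reads from this pair cannot be told apart.

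Dhrs3, which encodes a reductase that turns retinal back into retinol, was low in both lines. The primary cultures had 9.28, 39.2 and 15 CPM (female cultures 1 to 3) and 10.3, 12.9 and 24.0 CPM (male cultures 1 to 3). Among these, female cultures 2 and 3 and male culture 3 were the highest. PMC-303 had 1.77 CPM and PMC-306 had 3.78 CPM. No primary culture came near these values, and the mean of 18.5 ± 11.4 CPM (SD, n = 6) was 9.93-fold and 4.78-fold higher. The transcript that took 13.8% of all Dhrs3 counts had 0 counts in both lines and in male culture 1, while the transcripts with 48.1% and 33.5% were counted in all 8 libraries. Dhrs3 has no close copy.

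Pramel12, a PRAME-like gene of a family expressed mainly in germ cells and early embryos, was the only member above the primary range in both lines. It had 17.0, 15 and 14.4 CPM in female cultures 1 to 3 and 18.0, 18.3 and 17.6 CPM in male cultures 1 to 3. PMC-303 had 18.9 CPM, close to the highest primary culture, and PMC-306 had 28.9 CPM. Against the mean of 16.7 ± 1.63 CPM (SD, n = 6) this was 1.13-fold and 1.72-fold. Its counts were whole in all 8 libraries. Of the 47 genes named Pramel with a number, 21 of them in the region, only Pramel42 on chromosome 5 also reached 1 CPM, with 2.37 CPM in PMC-303, 3.64 CPM in PMC-306 and 0 in all 6 primary cultures. It was at least 8.62-fold and 13.1-fold higher in PMC-303 and PMC-306 than 3 counts in a primary library.

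Over all members, 7 of 10 were lower in both lines than the primary mean, 1 was higher in both (Pramel12) and 2 were split (Gm20707 and Znf41-ps). Of the members 3 (Zfp268, Zfp933 and Dhrs3) were below the range of the 6 primary cultures in both lines, where 20.4% of the 13304 genes with at least 1 CPM were. Of the 10, 1 was above the range in both lines, where 24.8% of these genes were. The median log2 fold of the members was -0.70 in PMC-303 and -1.07 in PMC-306, against medians over all genes of 0.02 and -0.01. As the genes were picked for this difference, these counts are given only as a description.

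The 24 other genes of the region with at least 1 CPM had median log2 folds of -0.57 in PMC-303 and -0.93 in PMC-306. In both lines 6 of them were below the primary range and 0 above, where 20.4% and 24.8% of all genes with at least 1 CPM were. The region was chosen by this contrast, so that these values too are only a description. The 6 were Vps13d, a lipid transport protein gene, with 99.0 and 109 CPM in PMC-303 and PMC-306 against 142 to 173 CPM, the zinc finger genes Zfp981 and Zfp979, and the pseudogenes Gm13230, Gm13146 and Rps19-ps3. For Gm13230 the 0 of both lines could not be told from the lowest primary culture at 0.0919 CPM. Zfp981 had 0.453 CPM (PMC-303) and 0.0982 CPM (PMC-306) against 1.46 to 6.07 CPM in the primary cultures. The lines differed at several genes. Tnfrsf1b, which encodes a TNF receptor, had 2.68 CPM in PMC-303 but 16.7 CPM in PMC-306, against 10.2 to 24.7 CPM. Zfp992 had 94.8 CPM in PMC-303, inside the primary range of 48.2 to 98.7 CPM, and 22.3 CPM in PMC-306, below it. Zfp993 had 24.3 CPM in PMC-303, above the range of 5.98 to 17.9 CPM, and 6.57 CPM in PMC-306.

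Smarca5-ps, another pseudogene just before Zfp990, had 0.954 CPM (PMC-303) and 0.415 CPM (PMC-306) against 0.843 to 6.39 CPM. Gm13169, Gm13233 and Zfp982 were lower in the lines than the primary mean but had primary cultures at or near 0 or, for Zfp982, at 0.211 CPM, and Gm13241 was below the primary range in PMC-306 alone (0.545 CPM against 1.53 to 4.66 CPM). The genes beyond Zfp933 lay close to their primary ranges. Fv1 had 16 CPM (PMC-303) and 11.4 CPM (PMC-306) against 12.2 to 15.8 CPM. Mfn2, a gene of mitochondrial fusion, had 78.0 and 57.6 CPM against 67.9 to 78.8 CPM. Plod1, a collagen lysyl hydroxylase gene, had 60.5 and 67.5 CPM against 35.1 to 63.2 CPM, and Miip had 26.5 and 31.1 CPM against 16.5 to 27.6 CPM. Gm13166 lay above its primary range of 2.30 to 4.23 CPM in PMC-303 (4.77 CPM) and below it in PMC-306 (1.69 CPM), and Gm13127 lay above its range in PMC-303 alone (1.13 CPM against 0.148 to 0.963 CPM).

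**Figure D4:**
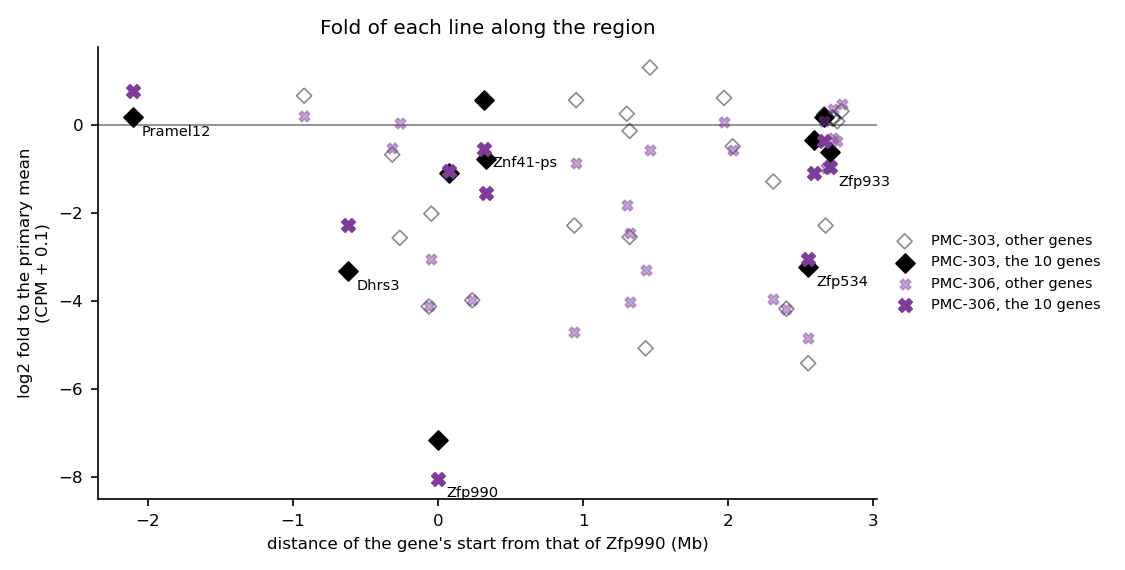
The distance of each gene's start from that of Zfp990 (Mb) is plotted against the log2 fold of PMC-303 (diamonds) and PMC-306 (crosses) to the primary mean, each with 0.1 CPM added, for the 34 genes with at least 1 CPM. Low folds are interspersed with folds near 0, for example Zfp534 beside Gm20707, and Zfp990 has the lowest value in both lines.

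Female and male primary cultures were compared because this contrast was not used to choose the genes. All 10 genes passed the filter on low counts, and 0 were called by limma, with an adjusted p of 1 for each and 0 at an unadjusted p under 0.05, where 0.0438% of 13693 genes were called. Zfp990 had a mean of 39.1 ± 36.0 CPM in females and 13 ± 21.8 CPM in males (SD, n = 3 each), a log2 difference of 1.85 ± 2.75 (SE). Female and male cultures did not overlap in 1 of the 10 members, Pramel12, where 7.97% of the 13693 genes did not overlap, so that this count is near the background. Pramel12 had 15.5 ± 1.38 CPM in females and 18.0 ± 0.387 CPM in males (SD, n = 3 each), a log2 difference of -0.22 ± 0.10 (SE). With differences between cultures as large as those of Zfp990, a sex difference of several-fold was not detectable in this gene.

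Levels per transcript length, taken from the deposited TPM values, ranked Znf41-ps first among the primary cultures with 23.7 ± 10.3 TPM (SD, n = 6). Dhrs3 followed with 13.2 ± 8.30 TPM, Zfp268 with 11.1 ± 4.21 TPM and Zfp990 with 9.02 ± 10.8 TPM. Zfp933 had 7.82 TPM with a range of 6.71 to 9.66 TPM, Gm20707 7.60 ± 2.05 TPM, Pramel12 6.09 ± 0.907 TPM and Gm13238 3.18 ± 1.87 TPM. This order depends on the transcript lengths used. With the counts divided by the length of the main annotated transcript and scaled to each library, Znf41-ps was again first (37.5 on this TPM-like scale), but Zfp268 (16.1), Zfp933 (12.6) and Gm20707 (12.1) came before Dhrs3 (11.3), Pramel12 (6.74) and Zfp990 (6.54). Gm13136 and Zfp534 came last in TPM with 0.573 ± 0.253 TPM and 0.443 ± 0.509 TPM. Neighbours in the order by TPM overlapped in their ranges over the 6 cultures, except Pramel12, which had 5.23 TPM or more, and Gm13238, which had 5.20 TPM or less. In female culture 2, Zfp990 with 25.5 TPM was above Zfp268 with 10.1 TPM, whereas in female culture 1 they had 0.0159 and 18.3 TPM. In the lines Znf41-ps was again first, with 37.7 TPM in PMC-303 and 18.0 TPM in PMC-306.

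The RNA of corepressor and heterochromatin genes, whose proteins take part in silencing, was examined in a list of 25 genes. They were not chosen from the chromosome 4 window, but the list was made with earlier results of these data known. Both lines were fitted against the 6 primary cultures over 14525 genes with limma (Benjamini-Hochberg adjusted p under 0.05). Of the 25, 14 rose, 1 fell and 10 did not pass, with a median log2 difference of 0.51. Over all genes 33.8% were called, 18.3% higher and 15.5% lower in the lines, and with TPM, under which the median over all genes was 0.13, 10 of the 25 were called, all higher. Trim28, the corepressor itself, was at 119.5 ± 11.0 CPM in the primary cultures (SD, n = 6) and rose to 198 CPM (PMC-303) and 188 CPM (PMC-306) (log2 difference 0.70 ± 0.10 (SE), limma adjusted p = 0.00121). Setdb1, its histone H3 lysine methyltransferase partner, rose from 42.1 ± 3.68 to 51.4 and 53.7 CPM (limma adjusted p = 0.0346). This call was kept in 7 of 17 alternative fits.

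The HP1 genes Cbx1, Cbx3 and Cbx5 rose, with log2 differences of 0.78, 1.5 and 1.69, as did the deacetylase genes Hdac1 (0.65) and Hdac2 (0.81) and the histone methyltransferase genes Suv39h1 (1.25) and Suv39h2 (2.47). Among the genes of DNA methylation, Uhrf1 rose most, from 17.0 ± 4.0 CPM (SD, n = 6) to 155 CPM (PMC-303) and 116 CPM (PMC-306) (log2 difference 3.01 ± 0.26 (SE), limma adjusted p = 0.00012). Dnmt1 rose from 102 ± 9.0 to 325 and 288 CPM. Dnmt3a rose with a log2 difference of 0.51 and was called in 6 of 17 alternative fits. Of the genes of the HUSH complex, which silences retroelements, Mphosph8 rose (1.18), Pphln1 rose (0.31) and Tasor fell, from 169 ± 10.5 to 138 and 124 CPM (log2 difference -0.37 ± 0.08 (SE), limma adjusted p = 0.00937). Of 17 alternative fits, Mphosph8 was called in 14, Pphln1 in 13 and Tasor in 12, and Tasor was not called with unadjusted totals or with TPM. Chd4 and Chd3 had the highest levels of the list in the primary cultures, 387 and 326 CPM, and log2 differences of -0.07 and -0.12. Trim24 and Trim33, relatives of Trim28, had log2 differences of -0.26 and -0.04 (limma adjusted p = 0.151 and 0.821). The paper reports higher cell cycle activity in PMC-306 than in primary cells, and the part of cycling in the levels of this list was not tested.

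Retinoid genes other than Dhrs3 were examined in a list of 24, of which 11 had enough counts. Of these, 2 rose, 0 fell and 9 did not pass, with a median log2 difference of -0.05 (0.08 with TPM). The share called was 18.2%, where 33.8% of all genes tested were called. Rdh11, a retinal reductase gene, rose from 36.0 ± 4.89 CPM (SD, n = 6) to 48.5 CPM (PMC-303) and 68.5 CPM (PMC-306) (log2 difference 0.69 ± 0.16 (SE), limma adjusted p = 0.0127). Dhrs9, a retinol dehydrogenase gene, was near the detection limit in the primary cultures, at 0 to 0.684 CPM with a mean of 0.205 CPM. It was above this range in both lines, with 6.92 CPM in PMC-306. With 0.1 CPM added, the fold to the primary mean was 4.11 in PMC-303 and 23.1 in PMC-306. The log2 difference of 3.61 ± 0.85 (SE) (limma adjusted p = 0.0121) thus rests more on the single PMC-306 library, and on primary levels near 0. Without PMC-306 none of the 11 was called, and without PMC-303 4 were. Rxra, a retinoid X receptor gene, had the highest primary level of the list, 39 ± 7.15 CPM (SD, n = 6), with 34.7 CPM (PMC-303) and 13.5 CPM (PMC-306) (limma adjusted p = 0.0779). All 3 Aldh1a genes, which make retinoic acid, were at or below 0.262 CPM in every library.

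**Figure D5:**
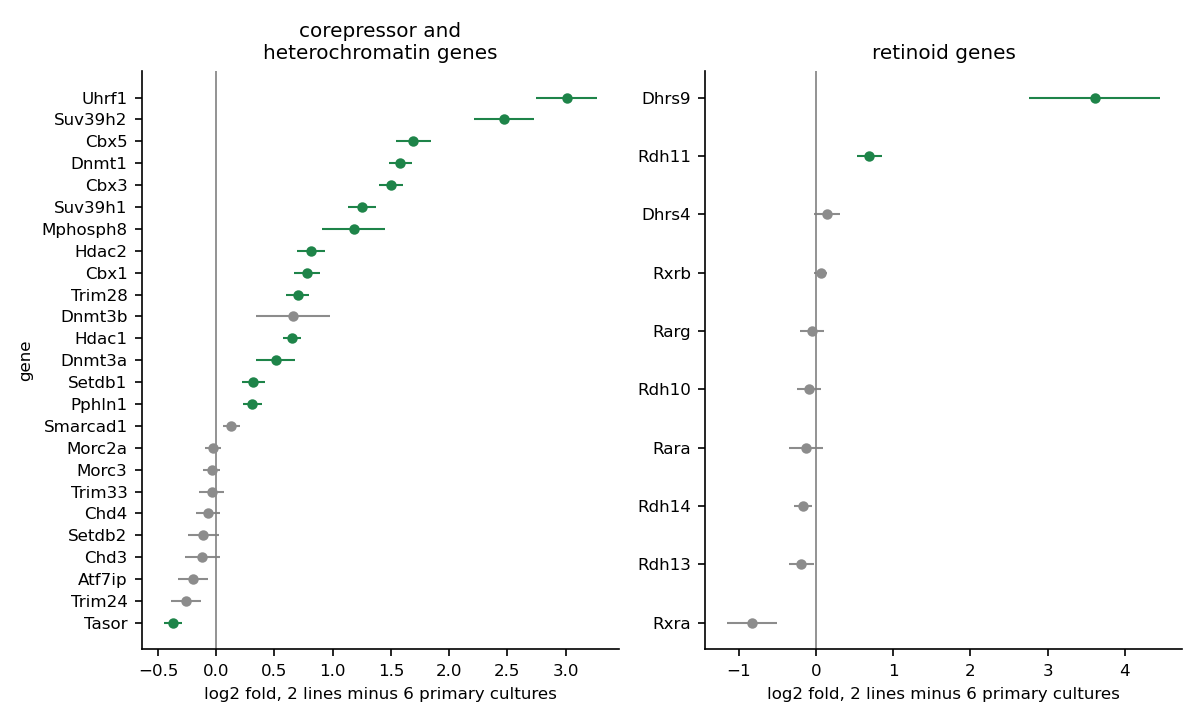
Points are log2 differences of the 2 lines minus the 6 primary cultures with their standard errors (bars) for the 25 corepressor and heterochromatin genes and 10 retinoid genes with enough counts, green where the limma adjusted p was under 0.05 and grey otherwise. Uhrf1 is at 3.01 and Tasor, the only called gene left of 0, at -0.37.

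Zinc finger genes outside the region served as the comparison for the cluster. Of 361 genes named Zfp with a number, 302 had enough counts, and 27.2% of these were called, 27 higher and 55 lower in the lines. Over all genes tested 33.8% were called, 18.3% higher and 15.5% lower. The median log2 difference of the Zfp genes was -0.11. With unadjusted library totals 37 were higher and 38 lower, and with TPM 21 were higher and 12 lower, so that the direction of this balance depends on the scaling. The largest falls were those of Zfp2 (chromosome 11), with 1.11 to 3.67 CPM in the primary cultures, 0.0412 CPM in PMC-303 and 0 in PMC-306, which is at least 11.1-fold lower in PMC-306, of Zfp783 (chromosome 6, 16.9 ± 7.09 CPM against 2.68 and 0.751 CPM) and of Zfp287 (chromosome 11, 3.36 ± 0.883 CPM against 0.0823 and 0.638 CPM). The largest rises were those of Zfp395 (1.64 ± 0.589 CPM against 4.86 and 5.16 CPM), Zfp808 (3.65 ± 0.590 CPM against 10.9 and 10.1 CPM) and Zfp934 (5.40 ± 0.469 CPM against 15.9 and 10.8 CPM). These 6 were called by limma with adjusted p between 0.00021 and 0.00807.

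Elsewhere in the genome 14 runs of at least 5 neighbouring Zfp genes could be compared. Their median log2 folds lay between -0.61 and 0.10 in PMC-303 and between -1.17 and 0.16 in PMC-306. The 14 tested Zfp genes of the chromosome 4 region had medians of -1.55 and -2.34, which describes the contrast by which the region was chosen. Of the 296 Zfp genes elsewhere that reached 1 CPM in a primary culture, 5 had a gap of 4-fold or more among the primary cultures. Over all genes that reached 1 CPM there, 2.26% had such a gap. Only 1 of the 5 Zfp genes lay in such a run.

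Among genes outside the region, the mean profile of the 10 members over the 8 libraries was most like those of Tbc1d20, Pdpr, Exd1, Pitpnc1 and Zfp704, with Pearson's r of 0.977 to 0.971 among 12558 genes. Over the 6 primary cultures it was most like Gm15931, Kif21b, Gucd1, BC043934 and Blvrb, with r of 0.998 to 0.989 among 12471 genes. Gm15931, a transcribed pseudogene on chromosome 7, had 3.69, 7.08 and 5.68 CPM in female cultures 2 and 3 and male culture 3 and did not exceed 0.710 CPM elsewhere among the primary cultures. In PMC-303 and PMC-306 it had 3.96 and 4.89 CPM, unlike Zfp990. The mean profile follows Zfp990 and Zfp534, which have the largest differences, and r serves only as a measure of likeness.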

How the data were processed

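RNA of 8 cultures (1 of PMC-303, 1 of PMC-306, 3 female and 3 male primary WT PMCs, grouped by their labels) was analysed. According to the paper and labels, the authors made stranded total RNA libraries, trimmed reads with Trim Galore 0.6.7, aligned them to GRCm39 with STAR 2.7.9a and quantified them with Salmon 1.5.2 in nf-core/rnaseq. Deposited were Salmon's estimated counts (by gene and by transcript, without normalization) and gene TPM. Among the deposited count cells 3.37% had been rewritten by a spreadsheet program and were restored, with 381 cells open to 2 readings at most 0.81 counts apart. Of the TPM cells 20.8% were restored, and the point of 9428 of them was placed to fit the counts. Because the deposited cells were partly text, count models were not used. Restored counts were scaled by TMM, and log2(CPM + 0.1) was tested with limma 3.58.1 in R 4.3.3 (trend, Benjamini-Hochberg) for genes with about 10 counts in enough libraries and 15 in total. This was checked on simulated counts that held only large changes. Differences as small as those of Setdb1, Pphln1, Tasor and Dnmt3a were not covered by that check. Libraries held 15918757 to 24180226 counts, and the 15 pairs of primary libraries differed beyond sampling noise (chi-square divided by its degrees of freedom, 20.6 to 68.0). A fold compares CPM + 0.1 of a line with the primary mean + 0.1, and for 1 to 3 counts the ratio of CPM with an exact Poisson interval. Positions and starts come from GENCODE M39 on GRCm39, in which 98.9% of genes were found. Promoter stretches were aligned with Biopython 1.88 and blastn 2.17.0, and other calculations used Python 3.11.15. The 10 members, the gene lists and the tests were chosen with earlier results of these data known. Named were the members, region genes with at least 1 CPM, the called and the highest genes of each list, the 3 largest rises and falls of Zfp genes elsewhere, the 5 genes most like the mean profile, and Pramel genes reaching 1 CPM. Genes of the Zfp990 kind below 1 CPM, Gm13236, Gm13135, AW146154, BC018473, Lyz2, Adgre1, Tpsb2 and the genes of both lists that did not pass were named after their values were seen. The values of 1 gene counted in the retinoid list are not reported here. Primary cultures are labelled biological replicates.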

Additional observations from a re-analysis of the deposited data

How the results depend on the processing

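All 20 log2 folds of the members (10 genes, 2 lines) kept their sign under the 12 alternatives tried (other scalings, offsets of 0.5 and 1 CPM, TPM, transcript sums, each primary culture left out). Of 240 values, 0 moved by more than 1 SD of the primary cultures. That SD was 4.02 (log2) for Zfp990 and 2.31 for Zfp534, so that this count says little about them. Zfp990 in PMC-306 ranged from -8.29 to -4.76 and Zfp534 in PMC-303 from -3.46 to -1.09. The fold of Zfp990 stayed at -4.64 or lower on the log2 scale. Leaving out each primary culture kept 7 members lower in both lines. Corepressor calls ranged from 12 to 15 when 1 library was left out, retinoid calls from 0 to 4 and calls of Zfp genes elsewhere from 59 to 80. Retinoid calls fell to 1 with the 3 female and 1 with the 3 male cultures alone as controls. Calls of Zfp genes elsewhere fell to 32 with the 3 female and 44 with the 3 male cultures alone, where fewer samples were used, and to 33 with TPM. Unadjusted totals and TPM moved the median of all genes by 0.10 and 0.13 (log2), with 3400 higher and 1665 lower or 2370 higher and 983 lower calls in place of 2660 and 2254. The following 2 alternatives were added after seeing the data: with an offset of 1 CPM 1 member kept a gap of 4-fold among the primary cultures, and at 0.5 CPM 1 gene with a start like Zfp990 was counted in a line. Counts per kilobase of the annotated transcript kept 8 members at 1 or more. In the test of sexes the replicate block called 0 members, as did the fit without it. The deviations of same-numbered female and male cultures had correlations of 0.404, -0.218 and 0.282 over 13693 genes, which differed in sign. No such values are given for differently numbered cultures, so that these do not decide whether the replicate numbers pair the cultures. At these depths levels under 0.123 to 0.187 CPM could not be told from 0.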
